A study of Homo sapiens with 2 samples.

Results

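ABCB1 and 9 genes beside it on band 7q21 of chromosome 7 are described here: ABCB4, CROT, RUNDC3B, TP53TG1, SLC25A40, DBF4, DMTF1, SRI and ADAM22. The 10 genes were taken by name out of 30238 gene names on the arrays, with every probe that carries one of these names, which gave 17 of 41000 probes. They were kept in the order of their probes along the chromosome, and both RNAs of both resistant lines were read.

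The parental A2780 cells are an established line from a human ovarian carcinoma. From them, A2780CBN had been selected in rising doses of carboplatin, up to 22.2 µM. A2780CBNDXL had been selected in carboplatin and docetaxel raised together, and its labels give 8.02 µM for the combination. In the study that value is the carboplatin part of the line's IC50, with docetaxel at a far lower concentration, and not the dose at which selection ended. Both resistant lines were set against cells labelled A2780CC, parental cells carried in culture beside them, and the methods describe such a control for each resistant line. No cloning step was described, so each line is a population of cells. The RNA from 3 isolations was combined to make 1 sample of a line, which was hybridised together with control RNA to 4 arrays, with forward and reverse dye labelling on each of 2 slides. The 4 arrays repeat 1 sample, and every SD below is over arrays unless it is given over the spots of an array. An SD over arrays covers labelling and hybridisation error only, and no test across cultures was possible. The A2780DXL line was not analysed here.

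ABCB1 encodes P-glycoprotein, a pump of the plasma membrane that uses ATP to move many unrelated hydrophobic compounds out of cells. Taxanes such as docetaxel are among its substrates, whereas platinum drugs are not usually counted among them. The gene lies within a dense cluster on the long arm of chromosome 7, and in cultured cells selected with its substrates the neighbouring genes are known to be raised together with it in some lines.

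A value is the processed intensity of a probe, called signal here. A probe counted as well above background on an array when the image software marked most of its spots so (a tie counted too), and is called dim otherwise. A gene passed the 2-fold rule when the mean of its log2 ratios, resistant line over control, had a size of at least 1, when all 4 arrays gave the same sign, and when at least 1 of the RNAs was well above background on every array. Genes that met the last condition with values on all 4 arrays are called tested. Where a gene has several probes, the probe of highest mean log2 signal stands for it. A change in signal can come from more or fewer cells that express a gene or from more or less RNA in each cell, and these cannot be told apart in RNA of a whole culture.

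In A2780CBNDXL, ABCB1 rose at least 23.5-fold over the control and ABCB4 at least 5.34-fold by a bound explained below, CROT 9.82-fold and TP53TG1 3.20-fold. Together they made 4 of 8 members tested, and 0 members fell, where 7.7% of all genes tested were called higher, 9.2% lower and 16.9% in either direction. In A2780CBN, TP53TG1 rose 2.59-fold and ADAM22 3.78-fold, 2 of 7 members tested, and 0 members fell, where 8% of all genes tested were called higher, 4.55% lower and 12.6% in either direction. ABCB1 and ABCB4 were not well above background in either RNA of A2780CBN. Of the 4 members called in A2780CBNDXL, ABCB1 and ABCB4 could be tested only through their bright resistant RNA, so the share of 4 in 8 carries no weight of its own. The log2 bounds of ABCB1 and ABCB4 depend on the processing. They were 4.56 and 2.42 here but 1.41 and 0.60 with the normexp correction described below, under which ABCB4 was not called. With both RNAs required to be well above background, 5 members were tested in A2780CBNDXL and 2 were called, CROT and TP53TG1, beside 12.6% of all genes. The median log2 ratio of the members tested was 0.02 in A2780CBN and 0.92 in A2780CBNDXL, against -0.06 and 0.04 for all genes tested. The 0.92 includes ABCB1 and ABCB4, and over the 5 members with both RNAs measured in A2780CBNDXL the median was 0.16, beside 0.05 for all such genes. The members not tested were ABCB1, ABCB4 and RUNDC3B in A2780CBN, and RUNDC3B and SRI in A2780CBNDXL. Both comparisons have a control of the same label, so their values are given side by side and no overlap between them is read.

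**Figure D1:**
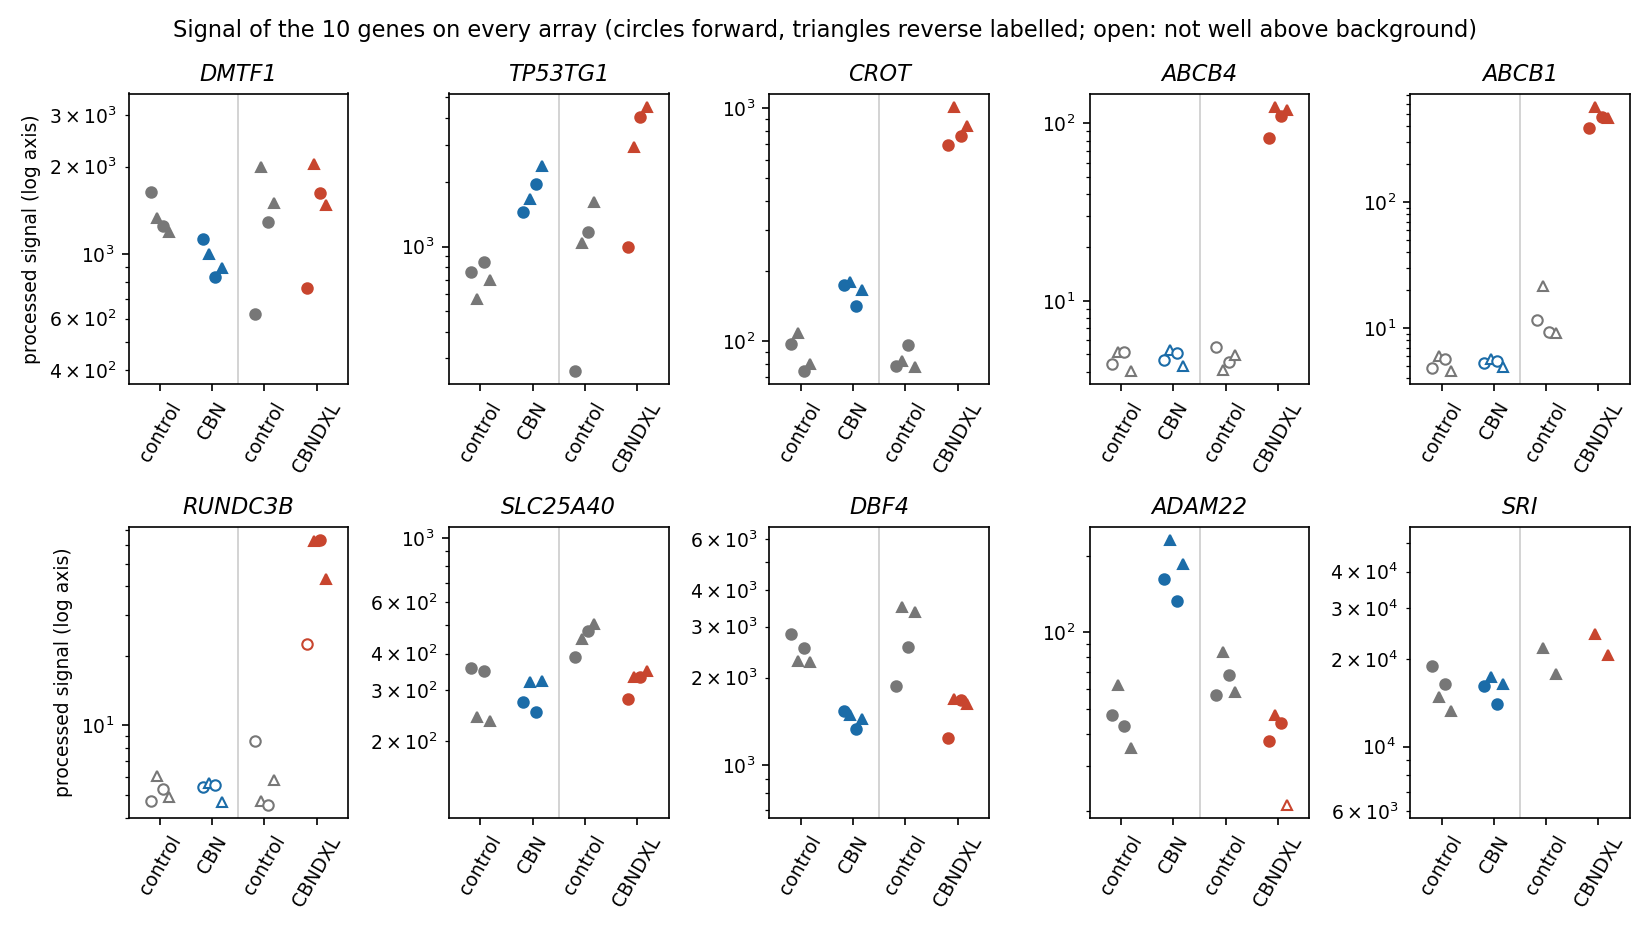
Processed signal (log axis) of the probe that stands for each of the 10 genes, in control RNA (grey) and resistant RNA (blue A2780CBN, red A2780CBNDXL) on each array; circles are forward and triangles reverse labelled arrays, and open symbols are not well above background. The 4 red symbols of ABCB1, ABCB4 and CROT lie above the grey ones beside them, and the blue symbols of ABCB1 and ABCB4 are open.

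The plot of signals by array shows the 10 genes in chromosomal order, each on its own axis. The ABCB1 probe has 60 bases and lies on chr7:86973249-86976539 of NCBI36, the build of the array files, on the minus strand. It spans more genome than its length, as do the ABCB4 probe and 1 SRI probe, which is how a probe across an exon junction appears. The ABCB4 probe lies on chr7:86880913-86884566, minus strand. The products of these genes are close relatives, so their probes are shown to let a reader see how far they differ. Capitals mark their longest shared run.

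ABCB1 probe: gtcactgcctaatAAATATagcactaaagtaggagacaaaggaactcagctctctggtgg
ABCB4 probe: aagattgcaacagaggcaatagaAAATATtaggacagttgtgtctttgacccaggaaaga

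The longest run shared by the ABCB1 and ABCB4 probes had 6 bases, and when the 60 bases of each were laid over the other without gaps, at most 21 were identical at any offset. Hybridisation of one gene's RNA to the other's probe was not tested.

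ABCB1 was measured by 10 spots on each array. In A2780CBNDXL its resistant RNA gave mean signals of 383, 568, 473 and 465 on arrays 1 to 4. The control RNA on these arrays gave 11.6, 21.7, 9.32 and 9.25. Every resistant signal lay far above every control signal, and the control was dim on all 4 arrays. The log2 ratios of the arrays were 5.04, 4.71, 5.67 and 5.65, and the smallest belonged to array 2, on which the control was brightest. With the dim control in the ratio, the change is a bound. The mean resistant signal was set against the higher, on each array, of the control's own signal and the lowest signal of any probe well above background, after scaling all channels to a common range. This gave at least 23.5-fold, or 4.56 on the log2 scale, and 4.68 and 4.44 for slide 1 and slide 2 alone. Without the control's own signal this floor averaged 4.27 in the control of A2780CBNDXL. Signals above it can still be dim. There 1 ADAM22 probe ran from 4.35 to 4.57 and was well above background on only 2 arrays. A dim control can thus lie above the floor, so no bound given here is a strict limit. The ABCB1 bound shrank to 1.41 when raw signals were corrected with the normexp method, with an offset of 50, and normalised by loess. In A2780CBN the control signals of ABCB1 were 4.88, 6.04, 5.65 and 4.57. A2780CBN gave 5.29, 5.72, 5.48 and 4.91. The groups overlapped, neither RNA was well above background on any array, and no fold is given.

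**Figure D2:**
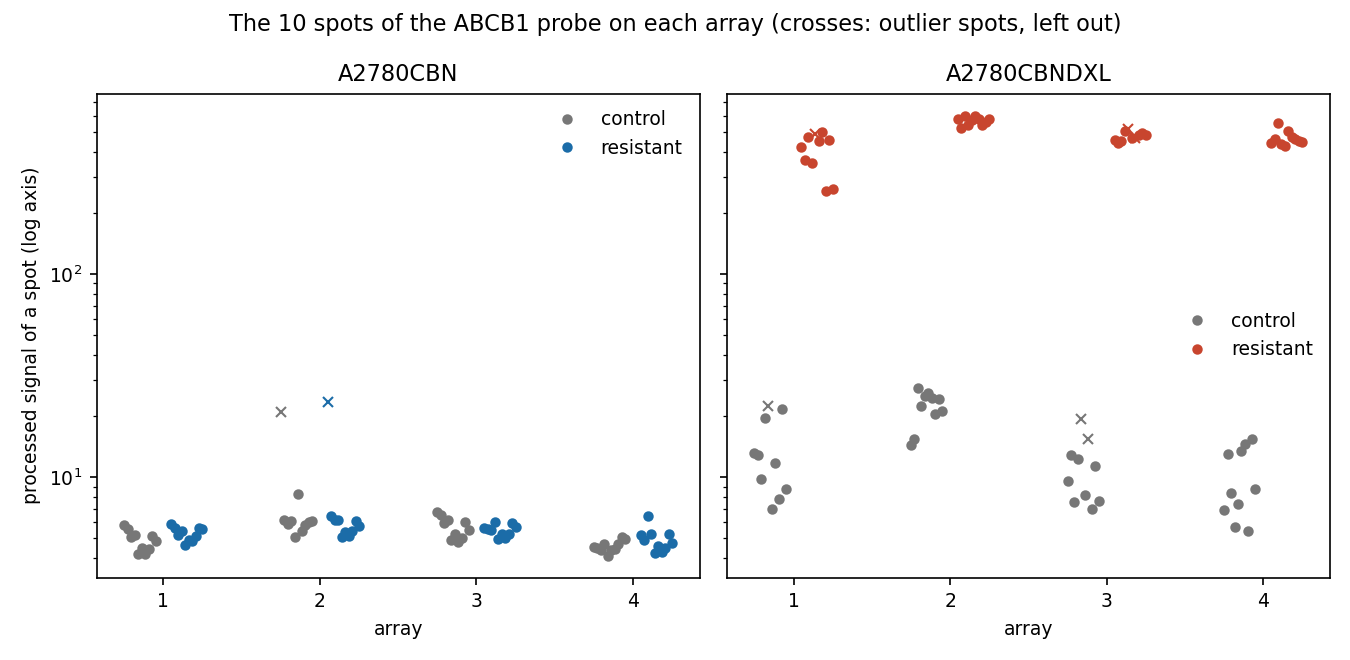
Processed signal (log axis) of each of the 10 spots of the ABCB1 probe on arrays 1 to 4, control RNA in grey and resistant RNA in blue (A2780CBN) or red (A2780CBNDXL); crosses are outlier spots that were left out. In A2780CBNDXL the resistant spots run from 257 to 603 and the control spots from 5.47 to 27.4.

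The plot of single ABCB1 spots shows that no array mean rested on a few spots. In A2780CBNDXL, 37 of 40 spots were used, the others being marked as outliers by the scanner software, and all 37 were well above background in the resistant RNA. Their resistant signals ran from 257 to 603 and their control signals from 5.47 to 27.4, so the ranges did not meet. The control was well above background in 4 spots, all of them on array 2. The SD of the log2 ratio over the spots of an array was between 0.29 and 0.57. In A2780CBN, 39 of 40 spots were used and none was well above background in either RNA.

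ABCB4 encodes a floppase that moves phosphatidylcholine across the membrane of hepatocytes into bile, and it has 1 probe. Its resistant signals in A2780CBNDXL were 82.4, 124, 110.3 and 119. The control gave 5.53, 4.07, 4.54 and 4.94, dim on all 4 arrays. The 4 resistant arrays again lay above the 4 control arrays without overlap. The bound was at least 5.34-fold, or 2.42 on the log2 scale, and it is low because the control signals lay under the lowest signals that count as measured. With normexp correction it was 0.60, and ABCB4 was no longer called. With background-subtracted signals centred on the median ABCB4 was not tested, although its log2 bound was 2.28 there. In A2780CBN the control signals of ABCB4 ran from 4.02 to 5.18 and those of the resistant line from 4.28 to 5.32, all of them dim.

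RUNDC3B, which encodes a RUN domain protein, overlaps ABCB1 in the RefSeq gene table and has 1 probe at chr7:87297357-87297416. In A2780CBNDXL its resistant signals were 22.5, 62.5, 63.1 and 43.1. The control gave 8.59, 4.73, 4.55 and 5.79. No control array reached the lowest resistant one, but the resistant RNA was well above background on only 3 of 4 arrays, array 1 being the dim one, so RUNDC3B was not tested. The bound over all 4 arrays was at least 2.08-fold. Without array 1 the gene passed the 2-fold rule, with a bound of at least 2.65-fold on the other 3 arrays and 5 members called in place of 4. Both RNAs of A2780CBN were dim on all arrays.

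CROT encodes the carnitine octanoyltransferase of peroxisomes, which passes shortened fatty acids on for export to mitochondria, and its probe lies at chr7:86865934-86865993. The control of A2780CBNDXL gave 78.4, 82.5, 96.1 and 77.4. Its resistant RNA gave 692, 1014, 760.4 and 839.7. All 8 values were well above background, and the groups lay far apart. The log2 ratio was 3.30 ± 0.29 (SD, n = 4 arrays), much larger than the spread between arrays, and 1.57 with normexp correction. In A2780CBN the control gave 97.4, 108, 74.4 and 80.2. Resistant signals were 174, 179.8, 141 and 166. Here too all resistant values lay above all control values, but the log2 ratio of 0.89 ± 0.13 did not reach 1 and CROT was not called. With background-subtracted signals centred on the median it was 1.02 and CROT was called, and with normexp correction it was 0.27.

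TP53TG1 is a long noncoding RNA gene, and it lies next to CROT with the opposite orientation. Its brighter probe lies at chr7:86808685-86808744. In A2780CBN the control gave 758, 566, 849 and 699. A2780CBN gave 1454, 1679.6, 1971 and 2376. The groups did not overlap and the log2 ratio was 1.37 ± 0.37. In A2780CBNDXL the control gave 261, 1041, 1167 and 1612. A2780CBNDXL gave 997, 2926, 4054 and 4519. Array 1 was lowest in both RNAs, and its resistant signal lay under the control signals of the other arrays, yet within every array the resistant RNA was the brighter, with a log2 ratio of 1.68 ± 0.22. The other probe, at chr7:86812338-86812397, gave 1.16 ± 0.12 in A2780CBN and 1.80 ± 0.10 in A2780CBNDXL, so both probes passed the rule in both lines. On this probe the A2780CBNDXL signals were 510.4, 673, 633 and 512 in the control and 1854, 2115, 2246 and 1847 in the resistant line, with no low array.

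The starts of TP53TG1 and CROT face away from each other, as do those of SLC25A40 and DBF4. The stretch between the starts of each pair is shown because both genes of a pair start from it. TP53TG1 and CROT were both called higher in A2780CBNDXL, which prompted the choice, but in A2780CBN TP53TG1 was called and CROT was not. Whether the genes of a pair are controlled together was not tested. Of the 10 members, 9 had a promoter entry in the RefSeq table for GRCh38.p14, and ABCB4 had none. ABCB1 had 2 entries, and the 250 bases before the start are given for the downstream one, since the other held none of the motifs looked for. They lie on the minus strand at chr7:87600885-87601134. The stretch between TP53TG1 and CROT is chr7:87345493-87345663 and that between SLC25A40 and DBF4 is chr7:87876361-87876492, both written on the plus strand. Capitals mark the motif CCAAT on either strand in each sequence, GGGGCGTGG in the ABCB1 promoter and GGGCGG in the other sequences.

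ABCB1 promoter: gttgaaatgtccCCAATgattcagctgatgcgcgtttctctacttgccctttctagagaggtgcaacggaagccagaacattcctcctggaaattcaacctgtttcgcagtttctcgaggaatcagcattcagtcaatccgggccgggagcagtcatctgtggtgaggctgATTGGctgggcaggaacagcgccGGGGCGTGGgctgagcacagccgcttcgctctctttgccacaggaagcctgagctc
between the starts of TP53TG1 and CROT: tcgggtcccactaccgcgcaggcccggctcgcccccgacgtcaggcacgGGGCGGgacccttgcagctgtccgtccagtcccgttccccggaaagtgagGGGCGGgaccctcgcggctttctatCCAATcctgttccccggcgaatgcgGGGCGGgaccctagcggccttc
between the starts of SLC25A40 and DBF4: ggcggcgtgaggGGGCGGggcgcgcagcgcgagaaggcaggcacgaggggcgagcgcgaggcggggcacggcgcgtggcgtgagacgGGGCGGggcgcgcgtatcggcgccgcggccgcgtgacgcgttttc

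The motifs CCAAT, to which the factor NF-Y binds, GGGCGG, the GC box to which SP1 binds, and GGGGCGTGG, a longer GC-rich element, were looked for on both strands, and none of them contains another. The ABCB1 promoter held CCAAT at bases 79 to 75 and 238 to 234 before the start and GGGGCGTGG at bases 56 to 48, with 0 matches to GGGCGG. Among 35116 promoters cut in the same way, 32.0% held CCAAT, 42.6% GGGCGG and 2.61% GGGGCGTGG. The 171 bases between TP53TG1 and CROT held 1 CCAAT and 3 GGGCGG, where 25.4% and 38.4% of windows of 171 bases before a start held these motifs. The 132 bases between SLC25A40 and DBF4 held 0 CCAAT and 2 GGGCGG, and of windows of that length 21.7% and 35.3% held them. Each share counts stretches with at least 1 match, so it cannot be set against a number of matches. A match is a description of the letters and not of a bound site, and the arrays measured no binding.

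DBF4, the regulatory subunit that activates the CDC7 kinase at replication origins, and DMTF1, a transcription factor that activates the ARF tumour suppressor gene, act in the cell cycle. DBF4 was measured by 10 spots at chr7:87375257-87375316 and by another probe at chr7:87376490-87376549. In A2780CBN the repeated probe gave 2820.0, 2287, 2534 and 2267 in the control. Signals of A2780CBN were 1532, 1483, 1337 and 1443. Every resistant value was the lower, at a log2 ratio of -0.77 ± 0.15, short of the limit of 1. In A2780CBNDXL the control gave 1866, 3497, 2543 and 3354. Signals of A2780CBNDXL were 1244, 1689, 1683 and 1628. Again no resistant value reached the lowest control value, and the log2 ratio was -0.82 ± 0.26. The 2 forward arrays gave -0.59 and -0.60 and the 2 reverse arrays -1.05 and -1.04, so the labelling directions differed by more than arrays of the same direction. Each of the 38 spots used in A2780CBN and of the 37 used in A2780CBNDXL was lower in the resistant RNA. The other probe fell in A2780CBN, with a log2 ratio of -1.35 ± 0.21, and gave -0.53 ± 0.73 in A2780CBNDXL, where its forward arrays gave 0.15 and 0.04 and its reverse arrays -1.30 and -1.01. The DBF4 probes thus differ on whether the 2-fold limit was reached in A2780CBN, and the mean over both probes was -1.06 there and passed the rule.

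The DBF4 spots also show how evenly an array was read. On array 1 of A2780CBNDXL the 10 resistant signals ran from 537 to 2153, a coefficient of variation of 42.2%, against 7.11% on array 4 and 1.96% on array 2. The SD of the log2 ratio over these spots was 0.07 on array 1, so control and resistant signals of a spot went up and down together. The probes that stand for DMTF1, TP53TG1, CROT, ABCB4, ABCB1, RUNDC3B and SLC25A40 also had their lowest resistant signal of A2780CBNDXL on array 1. Without array 1 the 4 members named above were still called, and RUNDC3B with them.

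DMTF1, the outermost member on the side of TP53TG1, has its probe at chr7:86663126-86663185. Its control signals were 1638, 1327, 1245 and 1194 in A2780CBN. A2780CBN RNA gave 1125, 1003, 838 and 896. These groups did not overlap, and the log2 ratio of -0.48 ± 0.09 was small but the same in sign on 4 arrays. In A2780CBNDXL the control gave 622, 2002, 1288 and 1498. A2780CBNDXL RNA gave 764, 2048, 1619 and 1470.5. The groups overlapped, and the log2 ratio of 0.16 ± 0.18 was within the spread between arrays.

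SLC25A40, a carrier of the inner mitochondrial membrane that takes part in the import of glutathione, has 3 probes between chr7:87300874-87300933 and chr7:87311021-87311080. The one in the middle, which stands for the gene, had control signals of 356, 242, 349.5 and 235 in A2780CBN. Those of the line were 272, 318, 252 and 321. The groups overlapped and the ratio followed the labelling, with -0.39 and -0.47 on the forward and 0.40 and 0.45 on the reverse arrays, for a mean of -0.00 ± 0.49. The 2 other probes gave -0.66 ± 0.50 and 0.14 ± 0.35. In A2780CBNDXL the 3 probes lay closer together, at -0.49 ± 0.04 for the middle one and -0.44 ± 0.38 and -0.34 ± 0.13 for the others. None of the SLC25A40 probes passed the rule in either line.

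ADAM22 belongs to a family of membrane-bound metalloproteases but has no protease activity itself, and acts at the cell surface as a receptor for LGI1. Its brightest probe lies at chr7:87663806-87663865. In A2780CBN the control gave 47.3, 62.3, 43.1 and 35.2. Resistant RNA gave 162, 229.9, 132 and 186. The groups did not overlap, and the log2 ratio was 1.92 ± 0.34. With normexp correction it was 0.53, and ADAM22 was no longer called. The probes on either side were dim in the control on all arrays and well above background in the resistant line on all arrays, with bounds of at least 2.97-fold and 1.90-fold, and both passed the rule. In A2780CBNDXL the brightest probe gave 56.6, 83.7, 68.0 and 58.6 in the control. Resistant RNA gave 37.7, 47.6, 44.2 and 21.1, the last of them not well above background. Here the resistant values were all lower, at a log2 ratio of -0.87 ± 0.41, and ADAM22 was not called. Without array 2 the ratio was -1.04 and ADAM22 was called lower, and with normexp correction it was -0.15. The 2 other probes were dim in at least 2 arrays of each RNA in this line and were not tested.

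SRI encodes sorcin, a calcium-binding protein that acts on ryanodine receptors, and is the outermost member on the far side. The brightest probe, at chr7:87675765-87676597, gave control signals of 18919, 14862, 16416 and 13252 in A2780CBN. Those of the line were 16203, 17402, 14021 and 16405. The groups overlapped, and the ratio of 0.02 ± 0.29 was within the spread. In A2780CBNDXL its spots on arrays 1 and 3 were outliers, so only 2 arrays gave a ratio, 0.16 and 0.21, and SRI was not tested. The other probe, at chr7:87673215-87673274, gave -0.28 ± 0.05 in A2780CBN and 0.37 ± 0.03 in A2780CBNDXL. Both values were small and had 1 sign on all arrays of a line.

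**Figure D3:**
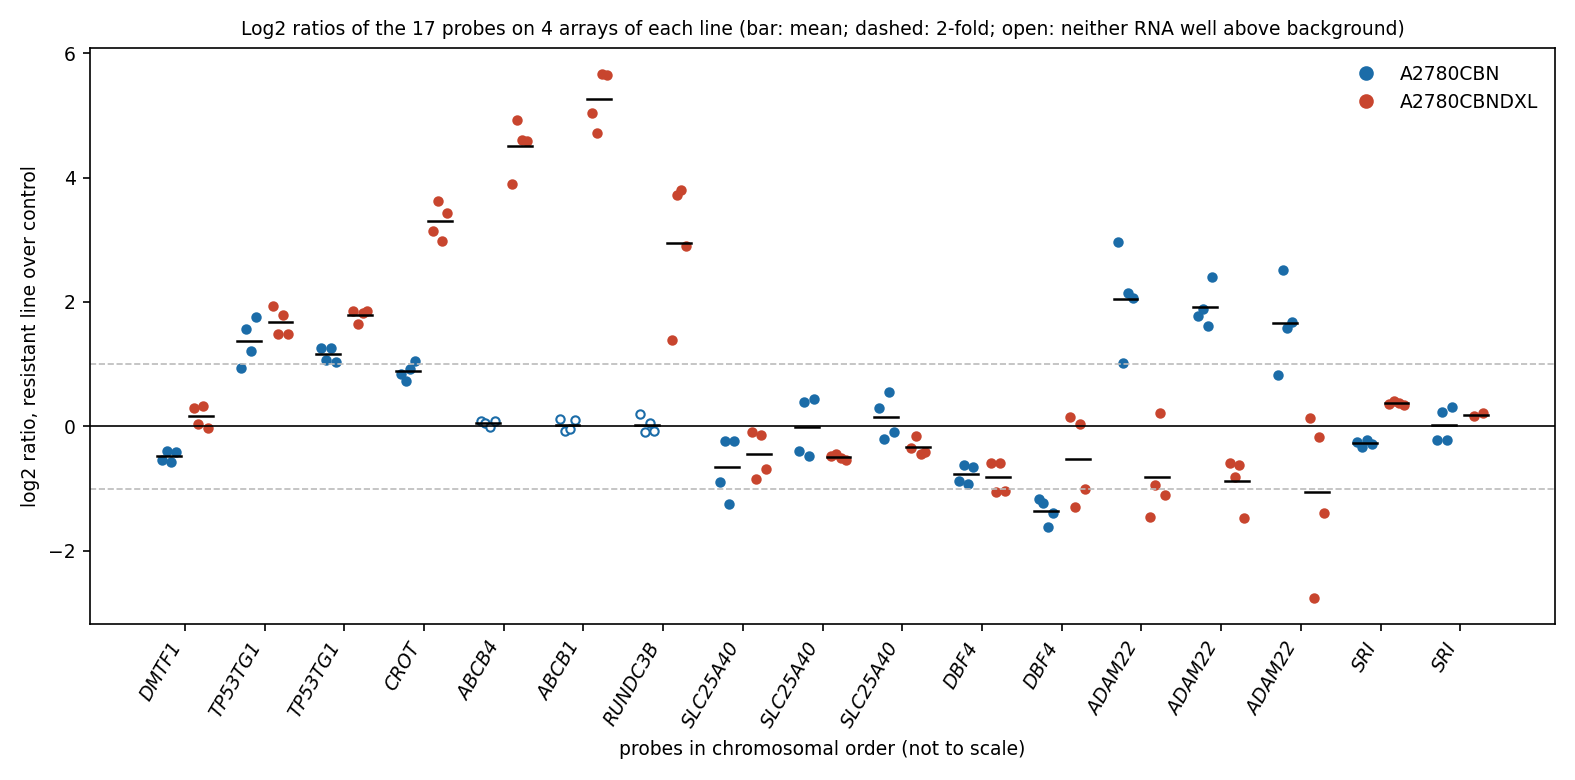
Log2 ratio of resistant line over control for the 17 probes in chromosomal order, a point for each array and a bar for the mean of a line; dashed lines mark the 2-fold limit and open points are probes dim in both RNAs. The red means of A2780CBNDXL run from 0.16 at DMTF1 up to 5.27 at ABCB1 and are at or below 0.37 from SLC25A40 onwards.

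The plot of ratios by probe gives the order of the members along the chromosome. In A2780CBNDXL the array ratios stood at 0.16 for DMTF1, 1.68 for TP53TG1, 3.30 for CROT, 4.50 for ABCB4, 5.27 for ABCB1 and 2.95 for RUNDC3B, the last 3 with a dim control, and then at -0.49 for SLC25A40, -0.82 for DBF4 and -0.87 for ADAM22. The members higher at least 2-fold on average were thus 5 neighbours in an unbroken row from TP53TG1 to RUNDC3B, with RUNDC3B not tested. Ratios with a dim control grow with how dim it is, so the order among ABCB4, ABCB1 and RUNDC3B is not that of their changes. In A2780CBN the members called, TP53TG1 and ADAM22, do not lie beside each other. Among single probes, 6 of 14 tested passed the rule in A2780CBN, where 12.1% of all probes did, 5 higher (7.52% of all probes) and 1 lower (4.62%). In A2780CBNDXL 5 of 13 tested passed, 5 higher (7.6% of all probes) and 0 lower (8.76%), beside 16.4% of all probes in either direction. These counts include probes tested only through a bright resistant RNA, the ABCB1 and ABCB4 probes in A2780CBNDXL and 2 ADAM22 probes in A2780CBN, and carry no weight of their own either. With both RNAs well above background, 4 of 12 member probes passed in A2780CBN and 3 of 10 in A2780CBNDXL, beside 8.56% and 12% of all probes. Probes of the same gene share its RNA and are not independent. The array also holds 1 named gene between the outermost members that is no member, C7orf23, whose log2 ratios were -0.30 ± 0.30 and -0.31 ± 0.23.

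The levels of a member in the 4 RNAs were set side by side after scaling all channels, as log2 values. ABCB1 stood at 8.85 ± 0.10 in the A2780CBNDXL line, at 3.58 ± 0.54 in its control, at 2.48 ± 0.05 in A2780CBN and at 2.46 ± 0.05 in the control of A2780CBN. The last 2 did not differ beyond their spread, and the 4 arrays of the A2780CBNDXL control all lay above those of the A2780CBN control although no array mean of either was well above background. CROT stood at 9.65 ± 0.10 in A2780CBNDXL and at 7.38 ± 0.14 in A2780CBN, which did not overlap. Its controls, at 6.36 ± 0.20 and 6.49 ± 0.22, did not differ beyond their spread. TP53TG1, by the probe with the smaller spread, stood at 10.92 ± 0.17 in A2780CBNDXL, 10.14 ± 0.09 in A2780CBN, 9.12 ± 0.16 in the control of A2780CBNDXL and 8.98 ± 0.11 in that of A2780CBN, of which the controls overlapped. ABCB4 stood at 6.69 ± 0.23 in A2780CBNDXL and between 2.19 and 2.33 in the other RNAs, all of these dim. ADAM22 stood at 7.46 ± 0.33 in A2780CBN, at 6.01 ± 0.19 and 5.54 ± 0.32 in the controls of A2780CBNDXL and A2780CBN, and at 5.14 ± 0.55 in A2780CBNDXL. ADAM22 levels did not overlap between the resistant lines. DBF4 stood at 11.33 ± 0.10 and 11.34 ± 0.25 in the controls and at 10.57 ± 0.08 and 10.53 ± 0.14 in the lines, in each case the same within the spread. RUNDC3B stood at 5.33 ± 0.84 in A2780CBNDXL and between 2.38 and 2.48 elsewhere, all dim there. For the remaining members the order was less clear. SLC25A40 ran from 8.20 ± 0.19 in A2780CBN to 8.79 ± 0.14 in the control of A2780CBNDXL, DMTF1 from 9.97 ± 0.13 in A2780CBN to 10.45 ± 0.13 in its control, and SRI, by the probe read on all arrays, from 7.82 ± 0.06 in A2780CBN to 8.99 ± 0.49 in A2780CBNDXL.

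**Figure D4:**
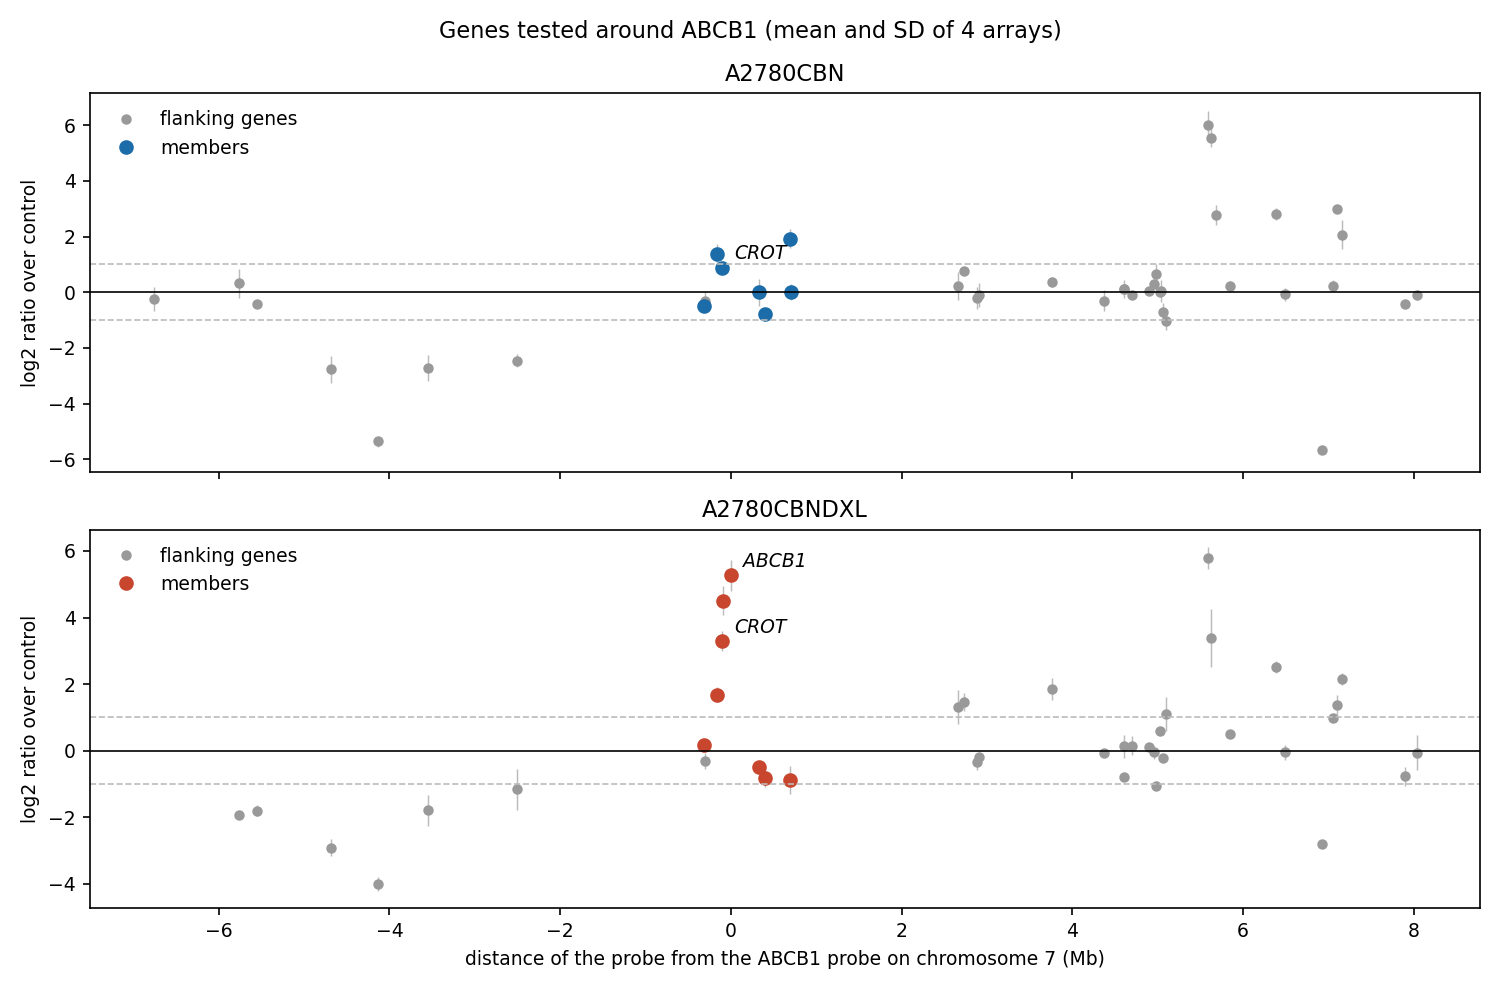
Mean log2 ratio with SD of 4 arrays for genes tested within the window of chromosome 7 around ABCB1, against the distance of the probe from the ABCB1 probe in Mb; members in colour, other genes in grey, dashed lines at 2-fold. Grey points lie on both sides of 0 in both lines, and the nearest grey point to ABCB1, C7orf23, lies at -0.30 and -0.31.

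How the members compare with the wider segment was read from the 52 other named genes with a probe from base 80000000 to base 95000000 of chromosome 7, shown in the plot by distance from ABCB1. In A2780CBN, 36 of them were tested and 12 were called, 6 higher and 6 lower, with a median log2 ratio of 0.02. In A2780CBNDXL, 33 were tested and 17 called, 9 higher and 8 lower, with a median of -0.05. The shares called were 33.3% and 51.5%, beside 12.6% and 16.9% of all genes tested, and the medians lie beside -0.06 and 0.04. With both RNAs well above background, 3 of 26 were called in A2780CBN and 13 of 29 in A2780CBNDXL, beside 9.07% and 12.6% of all genes, and normexp correction called 3 and 8. No test sets the members or all genes against these genes. Within the narrower window from base 85000000 to base 90000000, 12 such genes were found and 5 tested. Of these 5, 0 were called in A2780CBN and 2 in A2780CBNDXL, STEAP1 at 1.31 ± 0.51 and STEAP2 at 1.46 ± 0.27, which encode related membrane proteins and lie on the far side of the members.

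Genes farther out moved in both directions. SAMD9 and SAMD9L, neighbouring genes with antiviral roles, were dim in the control of A2780CBN and rose at least 13.8-fold and 13.1-fold. In A2780CBNDXL SAMD9 rose at least 16.6-fold, and SAMD9L also rose, with its control well above background on 1 array. No ratio is given here or below where the dimmer RNA was measured on 1 array alone, since its size then rests on how dim the other arrays were. SGCE, a sarcoglycan, rose in A2780CBN at 2.99 ± 0.10 and in A2780CBNDXL at 1.38 ± 0.30. TFPI2, an inhibitor of serine proteases in the matrix, rose in A2780CBNDXL at 2.52 ± 0.18, with its control well above background on 3 arrays. In A2780CBN TFPI2 rose at least 2.98-fold, with a dim control. On the lower side, COL1A2, a chain of type I collagen, fell in both lines, at -5.67 ± 0.15 and -2.81 ± 0.07, the resistant RNA of A2780CBN being well above background on 3 arrays. PCLO, a scaffold protein of synapses, fell in both lines, in A2780CBN with the line above background on 1 array and in A2780CBNDXL at -2.91 ± 0.24. SEMA3E, a secreted guidance molecule, fell at least 11.1-fold in A2780CBN and at -4.00 ± 0.21 in A2780CBNDXL, where 3 arrays of the line were above background.

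Transcription of ABCB1 is known to respond to nuclear receptors, stress factors and chromatin enzymes, and 22 such genes were listed. In A2780CBN, 20 were tested and 5 called, 4 higher and 1 lower. Of all genes tested there, 8% were called higher, 4.55% lower and 12.6% in either direction. FOXO1, a forkhead factor under the control of AKT, rose at 1.97 ± 0.24. JUN, a subunit of AP-1, rose at 1.82 ± 0.65 with its control above background on 3 arrays. KAT2B, a histone acetyltransferase, rose at 1.36 ± 0.25, and EGR1, an immediate-early factor, at 1.28 ± 0.43. HIF1A, the oxygen-regulated subunit of the hypoxia factor, fell at -1.08 ± 0.20. In A2780CBNDXL, 19 were tested and 4 were called lower, where 9.2% of all genes tested were called lower. HIF1A fell at -1.08 ± 0.53 and EGR1 at -1.36 ± 0.43. CEBPB, a leucine zipper factor of the stress response, fell at -1.81 ± 0.09, and FOXO1 fell at least 3.86-fold, dim in the resistant line. Over the listed genes tested, the median log2 ratio was 0.08 and 0.07, beside -0.06 and 0.04 for all genes tested. No test sets the list against all genes. NR1I2, the xenobiotic receptor known to induce ABCB1 in liver and gut, was not well above background in any of the 4 RNAs. NFYA, NFYB, NFYC and SP1, whose motifs were counted in the promoters, gave log2 ratios between -0.25 and 0.24 in A2780CBN and between -0.16 and 0.38 in A2780CBNDXL, none of them called.

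Other pumps that export drugs were read beside ABCB1. Of 9 listed, 5 were tested in each line, with 0 called in A2780CBN and 1 in A2780CBNDXL. Of all genes tested, 12.6% and 16.9% were called, so with 5 pumps tested nothing is read from these counts. ABCG2, the breast cancer resistance protein, fell in A2780CBNDXL at -1.98 ± 0.41, with the line above background on 2 arrays. The size of that ratio therefore rests in part on how dim the line was on the other arrays. Over the 5 pumps tested the median log2 ratio was -0.10 and -0.58, beside -0.06 and 0.04 for all genes tested. With the dim pumps included it was 0.03 and -0.43. ABCB5, ABCB11 and ABCC3 were dim in all 4 RNAs.

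**Figure D5:**
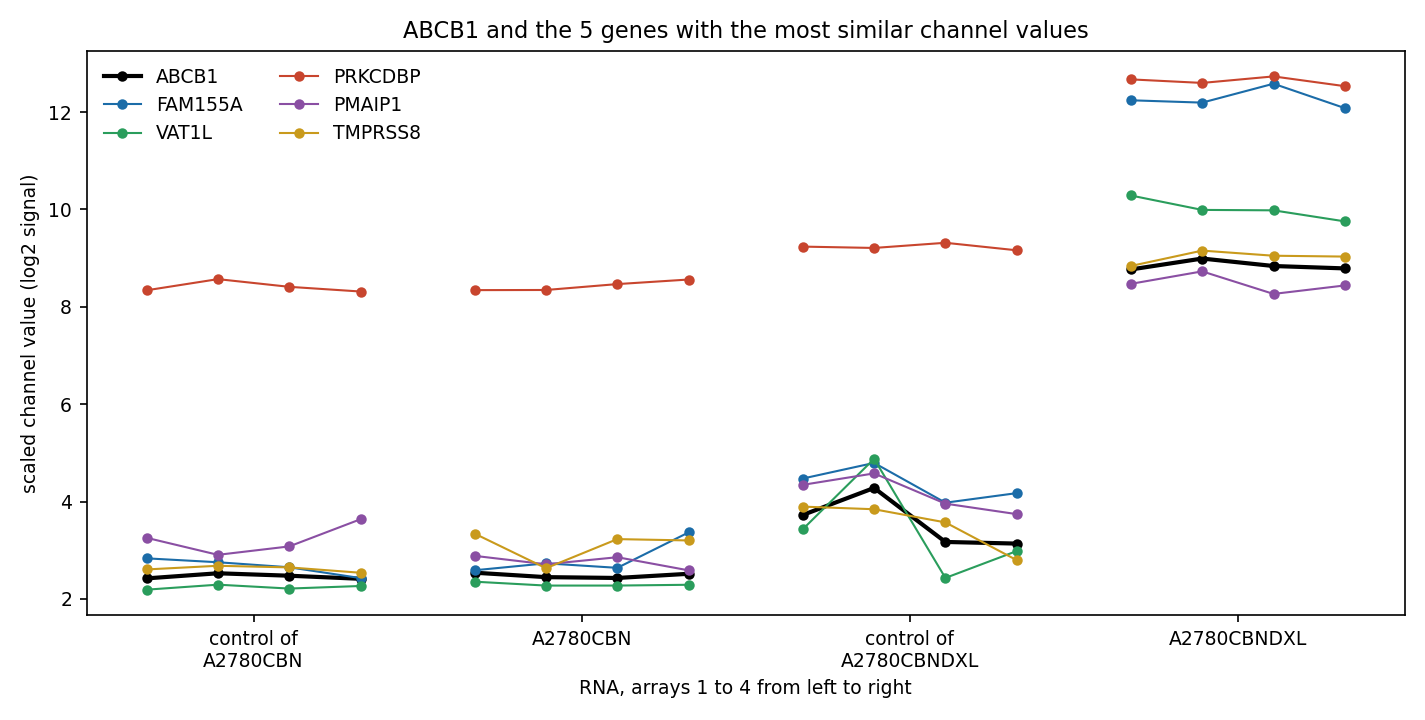
Scaled log2 channel values of ABCB1 (black) and of the 5 genes most like it over the 16 channels, in groups of 4 arrays for the control of A2780CBN, A2780CBN, the control of A2780CBNDXL and A2780CBNDXL. All 6 genes are highest in the last group.

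The genes whose scaled channel values followed ABCB1 most closely over the 16 channels were read among 11401 named genes well above background in A2780CBNDXL, and they are drawn in the plot of channel values. Pearson's r was 0.997 for FAM155A, 0.997 for VAT1L, 0.995 for PRKCDBP, 0.993 for PMAIP1 and 0.992 for TMPRSS8. None of them lies on chromosome 7. The 16 values come from 4 RNAs on 8 arrays, so r mainly restates that a gene was high in 1 RNA and low in the others, and no p is given. In A2780CBNDXL, FAM155A and VAT1L were well above background on all 4 arrays of the line and on 1 array of the control. PRKCDBP, a caveola protein measured in all RNAs, had a log2 ratio of 3.40 ± 0.03 there. PMAIP1, which encodes the pro-apoptotic protein NOXA, was likewise above background on 1 array of the control, and TMPRSS8 rose at least 26.8-fold. Among the members, r with ABCB1 was 0.97 for ABCB4, at rank 58, and 0.90 for CROT, at rank 336. It was 0.50 for TP53TG1, 0.21 for DMTF1, -0.03 for SLC25A40 and -0.50 for DBF4.

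Markers of the labelled cell type were read in the same RNAs. Of 5 epithelial markers, KRT8 and KRT18 were well above background on all arrays, KRT19 and EPCAM on some or all arrays of each RNA, and CDH1 on none. In A2780CBN, EPCAM rose at 2.07 ± 0.30 and KRT18 at 1.05 ± 0.16, while KRT8 gave -0.37 ± 0.17 and KRT19 -0.48 ± 0.51, lower on all 4 arrays but not called. In A2780CBNDXL, EPCAM rose at 1.67 ± 0.24, its control being above background on 3 arrays, KRT18 gave 0.51 ± 0.06 and KRT8 0.18 ± 0.07, and KRT19 was not tested. Of the ovarian and Mullerian markers PAX8 was measured at mean signals of 47.8 and 55.7 in the A2780CBN pair and 41.3 and 53.5 in the A2780CBNDXL pair, while WT1 and MUC16 were dim throughout. VIM was measured in all RNAs, rose in A2780CBN at 1.08 ± 0.67 and gave 0.30 ± 0.04 in A2780CBNDXL, and FN1 rose at least 8.75-fold in A2780CBN and was dim in the A2780CBNDXL pair. Among markers of cells that the culture should not hold, PTPRC and PECAM1 were dim in all RNAs. Of 3 leukocyte markers CD3E and CD68 were measured in all, with a summed signal of 169 in the control and 237 in A2780CBN, and of 172 in the control and 163 in A2780CBNDXL, CD68 being the brightest. Of 2 endothelial markers 0 were measured on all arrays of an RNA. Both fibroblast markers were measured in all RNAs. DCN, a matrix proteoglycan, rose at 2.21 ± 0.46 and 3.62 ± 0.29, and COL1A1 gave 0.99 ± 0.08 and rose at 2.04 ± 0.20. Their summed signal was 255 in the control and 661 in A2780CBN, and 738 in the control and 6829 in A2780CBNDXL, where DCN was the brighter in both RNAs. COL1A2, the partner of COL1A1, fell in both lines as given above. The part of other cells in the values of the members was not tested.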

How the data were processed

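A2780CBN and A2780CBNDXL RNA was each hybridised with control RNA to 4 two-colour Agilent arrays, each slide holding 1 array per line and labelling direction. Intensity values were deposited as Agilent Feature Extraction wrote them, slide 1 with version 10.7.1.1 of the software and slide 2 with version 10.7.3.1. The software had subtracted background and normalised the dyes to give the processed signals. The submitters' processing notes also name Partek, and its output was not used here. Forward arrays had control RNA in Cy3 and resistant RNA in Cy5. For reverse arrays the dye entries of the labels repeat those of the forward arrays, while the labels' names and the methods say that dyes were reversed. These arrays were therefore turned, after which each forward array correlated with each reverse array of its line, in log2 ratios over all probes, at 0.58 to 0.61 in A2780CBN and 0.73 to 0.74 in A2780CBNDXL.

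Control spots and outlier spots were left out, the latter 0.38% to 2.32% of 43376 spots, and no spot was saturated. Of the spots, 59.8% to 67.5% were well above background, which limits the measured range of dim genes. Spots of a probe were averaged on the log2 scale, the probe of highest mean log2 signal stood for its gene, and gene names are those of the files and can be old. Mean ratios gave both labelling directions the same weight. Levels and bounds used processed signals after Aquantile scaling with limma 3.58.1 in R 4.3.3, and the rest Python 3.11.15 with numpy 2.4.6, pandas 2.3.3 and matplotlib 3.10.9. Genes named from a list were those past the 2-fold rule, and where more than 6 passed in a line, only 3 from either end of the ranked log2 ratios. Genes compared with ABCB1 were well above background on all 4 arrays of A2780CBNDXL. The result of 1 gene of the regulator list is not reported here. The 4 regulators named beside their motifs were chosen for the motifs.

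Alternatives were normexp correction with an offset of 50 and loess, leaving out single arrays, median-centred signals with plain background subtraction, each slide or labelling direction alone, no filter or a stricter filter on dim probes, limits of 1.5-fold and 3-fold, the mean over probes, limma over arrays, and a narrower window on chromosome 7. The procedures were tested on simulated data. The members and lists were chosen with earlier results of these data known.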

Additional observations from a re-analysis of the deposited data

Results flagged for a closer look

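By the probe that stands for the gene, the mean log2 ratio of ADAM22 was 1.92 in A2780CBN but -0.87 in A2780CBNDXL, with all 4 arrays of a line on the same side of 0 and the lines on opposite sides. With normexp correction these were 0.53 and -0.15, and the 2 other ADAM22 probes each had 1 array above 0 in A2780CBNDXL. The probe of SRI read on all arrays gave -0.28 in A2780CBN and 0.37 in A2780CBNDXL, again with opposite signs on all arrays of each line. Neither difference between the lines was tested.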

How the results depend on the processing

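Each line was 1 pooled sample, so the alternatives show only how processing and arrays move the values. With normexp correction, 1 member and 1 member probe were called in A2780CBN in place of 2 and 6, 3 flanking genes in place of 12, and 8 in place of 17 in A2780CBNDXL, while the log2 bounds of ABCB1 and ABCB4 were 1.41 and 0.60 in place of 4.56 and 2.42. Background correction, the offset of 50 and loess changed together there, and the cause was not tested. Over all genes tested normexp called 604 (3.36%) and 1172 (6.85%) in place of 2253 (12.6%) and 2893 (16.9%). In A2780CBN the 1.5-fold limit called 4 members and the 3-fold limit 1 member and 3 member probes, and in A2780CBNDXL the 3-fold limit called 11 flanking genes. Over all genes tested the 1.5-fold limit called 4860 (27.1%) in A2780CBN and 5699 (33.3%) in A2780CBNDXL. The 3-fold limit called 1121 (6.24%) and 1467 (8.57%). Reverse labelled arrays alone called 7 of 10 members tested and 10 member probes in A2780CBNDXL, where they also called 21.7% of all genes in place of 16.9%, and the cause was not tested. With both RNAs well above background, 2 members and 3 member probes were called in A2780CBNDXL and 3 flanking genes in A2780CBN. Background-subtracted signals gave 7 of 32 flanking genes tested in A2780CBN, beside 12.3% of all genes tested, and the cause was not tested. ABCB4 was not tested with such signals in A2780CBNDXL, although its log2 bound was 2.28 in place of 2.42. The narrower window gave 0 and 2 flanking genes.

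Leaving out 1 array gave 2 members in A2780CBN each time, 4 to 5 in A2780CBNDXL, and ABCB1 bounds of 4.50 to 4.65 on the log2 scale. Of all genes tested, 12.4% to 12.8% were then called in A2780CBN and 16.6% to 17.3% in A2780CBNDXL. Slide 2 alone called RUNDC3B and ADAM22 in addition in A2780CBNDXL. Of 39 values of 13 member log2 ratios under normexp, background-subtracted signals or the mean over probes, 10 moved by 1 SD over arrays or more, 7 of them under normexp, and 0 reversed a called sign. Using fewer arrays or limma cannot move a mean that far, so those values are not counted. No paired analysis was possible because each group was 1 pooled sample.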
